A study of Drosophila melanogaster with 2 samples.

Results

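The genes described here encode the proteins of the small (40S) subunit of the cytosolic ribosome in Drosophila melanogaster. They were taken as the protein-coding genes of the Ensembl annotation whose symbol starts with RpS followed by a digit, which gave 38 genes of 13945 on the 6 chromosome arms analysed. A gene was called bound when the summit of a peak of the pooled thresholded list lay within 500 bp of one of its annotated start sites. The series is a chromatin immunoprecipitation with sequencing (ChIP-seq) experiment on transgenic whole embryos of the strain Nf-YA-GFP, aged 0 to 24 h, with 1 group of 2 biological replicates that carry the same Nf-YA-eGFP fusion as an insertion and whose sex was not recorded. Nf-YA is the DNA-reading subunit of NF-Y, the trimeric factor that recognises the CCAAT box. The material was whole organisms of every embryonic age in that span, so a peak gives no cell type, and the promoter that drives the fusion is not given in the sources used here. Chromatin was sheared to 200 to 800 bp and precipitated with an antibody against GFP, per the labels, and no control library is analysed here.

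The small subunit scans the messenger RNA, holds the initiator transfer RNA and decodes codons. Its proteins sit on the ribosomal RNA in a head, which swivels during translocation, and in a body with a platform and the messenger RNA channel. Ribosomal protein genes are among the most strongly transcribed genes of the fly, many start at a polypyrimidine sequence known as the TCT initiator, and many fly promoters of housekeeping genes carry the DNA replication-related element (DRE), which the factor DREF binds. Loss of a single copy of many of these genes gives the Minute phenotype of slow growth and thin bristles. Several subunit proteins are encoded by a pair of gene copies, of which 1 is often restricted to the germline.

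At 6 of the bound small-subunit genes the DRE, spelled TATCGATA, lay within 50 bp of the Nf-YA summit, and these promoters are shown because the element was rare at other summits. Each line holds the 100 bases before the start site nearest to the summit and the first 30 from it on, 5′ to 3′ on the strand of the gene, from the dm6 reference. Capitals mark the DRE, which reads the same on both strands.
RpS10b, chrX:19597931-19598060, plus strand: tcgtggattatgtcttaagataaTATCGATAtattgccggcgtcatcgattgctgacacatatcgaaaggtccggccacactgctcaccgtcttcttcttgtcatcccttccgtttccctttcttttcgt
RpS12, chr3L:13023252-13023381, plus strand: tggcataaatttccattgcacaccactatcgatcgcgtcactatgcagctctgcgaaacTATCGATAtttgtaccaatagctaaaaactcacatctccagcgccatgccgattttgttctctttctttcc
RpS14a, chrX:7933642-7933771, plus strand: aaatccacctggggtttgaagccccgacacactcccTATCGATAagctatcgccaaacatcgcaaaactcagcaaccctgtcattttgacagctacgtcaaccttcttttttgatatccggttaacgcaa
RpS15Aa, chrX:13337676-13337805, minus strand: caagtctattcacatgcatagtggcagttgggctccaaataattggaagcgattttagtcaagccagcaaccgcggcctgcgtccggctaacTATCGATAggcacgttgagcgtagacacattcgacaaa
RpS25, chr3R:11216258-11216387, minus strand: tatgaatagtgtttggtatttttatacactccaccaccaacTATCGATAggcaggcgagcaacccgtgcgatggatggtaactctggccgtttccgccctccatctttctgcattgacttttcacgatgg
RpS29, chr3R:9777942-9778071, plus strand: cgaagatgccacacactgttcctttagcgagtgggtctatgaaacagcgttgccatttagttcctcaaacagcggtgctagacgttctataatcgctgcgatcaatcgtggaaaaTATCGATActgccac

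The CCAAT pentamer lay within 50 bp of the summit at 2 bound small-subunit genes, RpS12 and RpS28b. The window of RpS28b is shown in the same way because it held the pentamer 13 bp from the summit of the second tallest small-subunit peak. Capitals mark the pentamer on the opposite strand, ATTGG. In the RpS12 line above, the pentamer lies downstream of the DRE, at the summit base itself.
RpS28b, chrX:9554523-9554652, plus strand: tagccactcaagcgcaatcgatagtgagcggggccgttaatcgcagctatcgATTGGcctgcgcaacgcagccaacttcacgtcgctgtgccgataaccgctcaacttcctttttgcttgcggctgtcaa

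Nf-YA summits lay at 18 of the 38 small-subunit genes (47.4%), against 12.5% of all protein-coding genes (1737 of 13945). The peaks were of middling height and stood directly on the start sites. The tallest were at RpS27, whose protein has a zinc finger and belongs to the body, with a pooled signal of 255, and at RpS28b, whose head protein lies near the messenger RNA exit, with 192. The signal is the value deposited by the authors for each peak. Its scale is not given, so it is compared within a list only. The median signal was 116 at the 18 bound small-subunit genes and 98.1 at all bound protein-coding genes. Of the 18 peaks, 14 stood in the upper 50% of the pooled list of 3354 peaks, yet only 3 stood in the upper 25%, those of RpS27 (rank 242), RpS28b (rank 436) and RpS25 (rank 715). The rank of the 18 peaks ran from 242 to 2793 with a median of 1059.

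**Figure D1:**
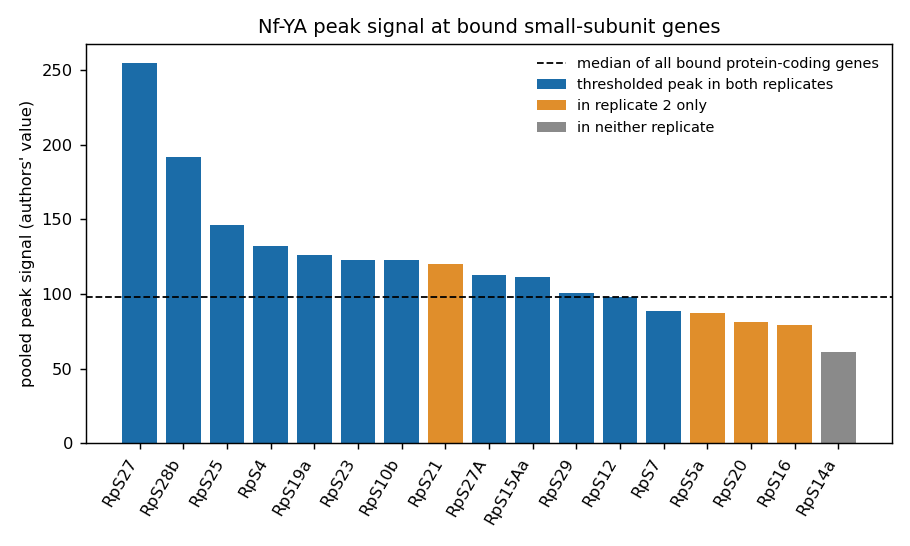
Pooled peak signal (authors' value, linear axis) at 17 of the 18 bound small-subunit genes, 1 bar per gene, coloured by whether the pooled peak overlapped a thresholded peak of each replicate. RpS27 (255) and RpS28b (192) stood above the rest, and the 5 genes without support in both replicates included the 4 lowest bars; the dashed line is the median of 98.1 over all bound protein-coding genes.

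Among the proteins of the head, 11 of 19 genes were bound (57.9%), with a median signal of 113. RpS28b had signals of 105 in the ranked list of replicate 1 and 88.5 in that of replicate 2, ranks 298 of 96038 and 661 of 116026. A ranked list holds every candidate peak of a replicate, most of which do not pass the authors' threshold. RpS25, whose protein is used in internal initiation by some viral messenger RNAs, had a pooled signal of 146, with 65.2 in replicate 1 and 86.6 in replicate 2. RpS19a, whose human counterpart is mutated in Diamond-Blackfan anaemia, had 126, with 59.0 in replicate 1 and 66.4 in replicate 2. All of these peaks were in the thresholded list of each replicate.

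The other head genes were lower. RpS10b, whose protein stands at the messenger RNA entry, had a pooled signal of 123, with 65.2 in replicate 1 and 60.4 in replicate 2. RpS27A, which encodes a fusion of ubiquitin and a ribosomal protein, had 113, RpS29 had 101 and RpS12 had 98.1. The protein of RpS12 is needed in flies for the elimination of cells with defective ribosomes by their neighbours. RpS5a (87.2), RpS20 (81.2) and RpS16 (79.5) closed the group. The proteins of RpS5a and RpS16 contact transfer RNA. Each of these 3 passed the threshold in replicate 2 but missed it in replicate 1.

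Among the proteins of the body and platform, 7 of 19 genes were bound (36.8%), with a median signal of 120. RpS27 had signals of 94.3 in replicate 1 and 158 in replicate 2, ranks 354 and 217. RpS4 had a pooled signal of 132, with 78.2 in replicate 1 and 72.1 in replicate 2. RpS23, whose protein reaches the decoding centre, had 123, with 49.2 in replicate 1 and 80.3 in replicate 2. RpS21 had 120, RpS15Aa had 111, RpS7 had 88.6 and RpS14a had 61.2, the lowest of the 18. Counts in the head and in the body and platform were not tested against each other.

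Summits at small-subunit genes lay nearer to the start site than summits at bound genes in general, a difference that was described and not tested. The median distance from summit to start site was 26.5 bp at the 18 bound small-subunit genes and 141 bp at all 1737 bound protein-coding genes. Of the 18 summits, 15 were within 50 bp, against 14.6% of all bound genes, and 17 were within 100 bp, against 32.5%. The most common bin of 50 bp was just upstream of the start site at the small-subunit genes, with 55.6% of them, and from 150 to 100 bp upstream at all bound genes, with 18.4%. In all, 13 of the 18 summits (72.2%) were upstream of the start site, against 80.4% over all bound protein-coding genes. The other 5 were downstream (RpS27, RpS21, RpS15Aa, RpS29 and RpS7, by 3 to 26 bp). With the limit set at 100 bp, 17 small-subunit genes (44.7%) stayed bound, against 4.05% of all protein-coding genes.

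**Figure D2:**
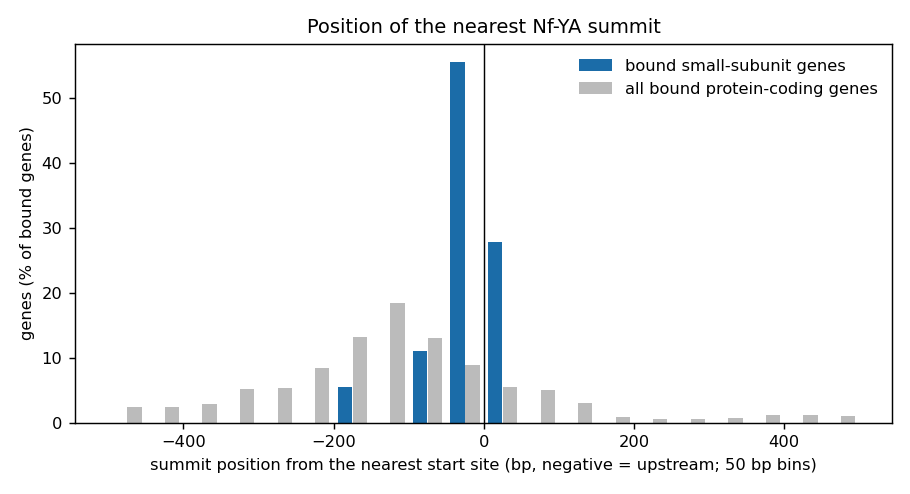
Signed distance from the nearest start site to the nearest summit, in bins of 50 bp, as percent of bound genes on the vertical axis, for the 18 bound small-subunit genes and for all 1737 bound protein-coding genes. Small-subunit summits fill the bins next to the start site (55.6% and 27.8%), where all bound genes have 8.98% and 5.53%.

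The limit of 500 bp fell in a gap. The summit farthest from its start site among the bound genes was that of RpS20, at 159 bp upstream (chromosome 3R, summit 20822022). The nearest summit to an unbound gene was 881 bp upstream of RpS19b, and the next were 977 bp from RpS14b and 1699 bp from RpS3. For 11 of the 20 unbound genes the nearest summit was more than 10000 bp away.

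Other genes shared some of these summits. At 9 of the 18 a second protein-coding gene started no more than 500 bp from the summit, and at 8 of these 9 the second gene ran in the opposite direction, away from the ribosomal protein gene. The start of the small-subunit gene was the nearer at all 8. The difference was small at RpS20, with 159 bp against 174 bp for CG17271, and at RpS25, with 81 bp against 167 bp for CG4820. It was large at RpS27 (3 bp against 147 bp for Nup37, a nuclear pore gene) and at RpS21 (12 bp against 304 bp for CG3104). RpS27A and Ip259 share an annotated start site, so their summit at 80 bp cannot be given to either. Of the 9 bound genes alone at their summit, 8 had a thresholded peak in both replicates.

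Both replicates put the taller small-subunit peaks in their lists. The own thresholded list of replicate 1 held a summit within 500 bp of 14 of the 38 genes (36.8%), against 7.54% of all protein-coding genes. That of replicate 2 held 17 of 38 (44.7%), against 9.14%. The conservative list of both replicates bound 18 of the 38, against 11.6% of all genes. Thresholded peaks of both replicates overlapped the pooled peak at 13 of the 18 genes (72.2%), where the share over all bound protein-coding genes was 47.0%. A further 4 overlapped a peak of replicate 2 alone (RpS21, RpS5a, RpS20 and RpS16), and that of RpS14a overlapped neither.

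These 5 genes had scores from just below the threshold to far below it in the replicate that missed them. The authors' score, which runs up to 1000, is a coded form of the irreproducible discovery rate. No peak of the pooled thresholded list scored under 830. In replicate 1 RpS21 scored 815, with a signal of 39.8, and RpS16 scored 737, with 35.2. RpS5a scored 493 in replicate 1, with a signal of 31.1 at rank 3068, while it reached 67.7 at rank 1061 in replicate 2. RpS20 scored 466 in replicate 1. RpS14a scored 435 in replicate 1 and 622 in replicate 2.

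RpS3A went the other way. Its summit in replicate 1, on chromosome 4 at 67210, lay 3 bp upstream of the start site with a signal of 54.6 at rank 1022 and a score of 1000. The ranked list of replicate 2 held no entry within 500 bp of this start site, and its nearest summit was 17339 bp away. Chromosome 4 had 449 ranked entries in replicate 1 and 255 in replicate 2. The pooled list held no peak there either, and its nearest summit was 357605 bp away.

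The 20 unbound small-subunit genes mostly had low entries in the ranked lists. In replicate 1 a ranked entry lay at 37 of the 38 genes (97.4%), against 73.4% of all protein-coding genes, and in replicate 2 at 36 (94.7%), against 76.9%. The tallest entry at each gene had a median signal of 48.5 over the 18 bound genes and 20.1 over the unbound ones in replicate 1, where the median was 17.0 over all genes with an entry. In replicate 2 it was 64.4 over the bound genes and 23.6 over the unbound ones, against 19.3 over all genes with an entry. The bound genes were called from a list made of both replicates, so their higher values follow from the call.

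The unbound genes nearest to the threshold were RpS26 and RpS28a, both in replicate 2. RpS26, whose protein stands at the messenger RNA exit, had a signal of 39.5 with a score of 791 in replicate 2, and a signal of 15.0 with a score of 120 in replicate 1. RpS28a had 41.3 with a score of 786 in replicate 2, and 20.1 with a score of 35 in replicate 1, and these entries stood at -212 bp and -410 bp from its start site, negative meaning upstream. At the other end, RpS15 had 10.1 in replicate 1 and 8.45 in replicate 2, and RpS24 had 7.76 and 19.3. RpS6, the target of the growth kinase S6K, had 20.4 in replicate 1 and 27.6 in replicate 2, and RpS3 had 18.2 in replicate 1 and no entry in replicate 2. RpS28-like had no entry in replicate 1 and 19.6 in replicate 2. RpS2, RpS9, RpS13, RpS18 and RpS30, also unbound, had 16.2 to 27.0 in replicate 1 and 6.79 to 33.9 in replicate 2.

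**Figure D3:**
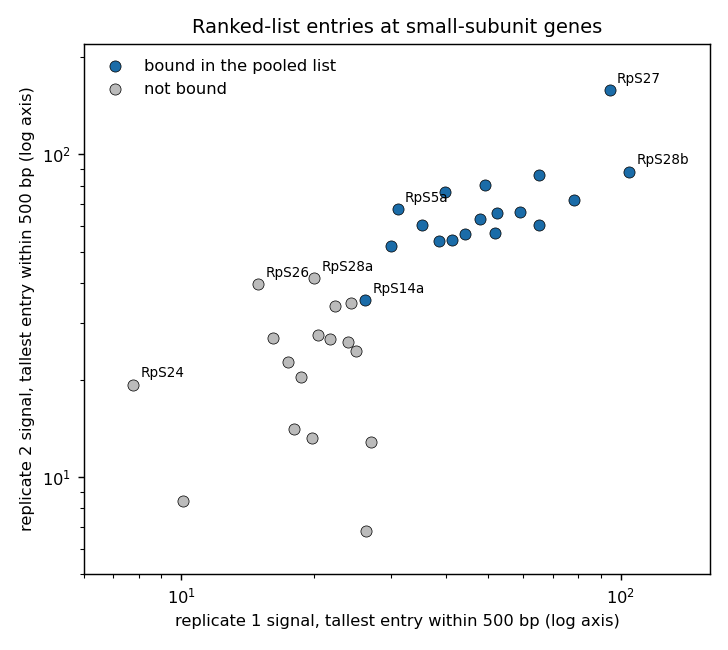
Signal of the tallest ranked-list entry within 500 bp of a start site in replicate 1 (horizontal, log axis) and replicate 2 (vertical, log axis) for the 35 small-subunit genes with an entry in both lists, 1 point per gene, filled in blue where bound in the pooled list. RpS27 and RpS28b lie at the upper right, and RpS14a (26.2 and 35.3) lies among the unbound genes.

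Over the 35 genes with an entry in both lists, Spearman's rho of the replicate signals was 0.828, and over the 18 bound genes it was 0.693. These are descriptions across genes, which share the libraries and are not independent replicates.

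In the pooled list, with the limit of 500 bp, the 6 pairs of gene copies each had exactly 1 bound copy. The bound copies were RpS5a, RpS10b, RpS14a, RpS15Aa, RpS19a and RpS28b, and the unbound copies RpS5b, RpS10a, RpS14b, RpS15Ab, RpS19b and RpS28a. This pattern did not hold under every setting. Within 1000 bp RpS14b and RpS19b were bound as well. The summit counted for RpS14b, 977 bp upstream of it, is also the one 179 bp downstream of the RpS14a start site. RpS14a was bound in the own thresholded list of neither replicate, and RpS5a was not bound in that of replicate 1. RpS5b, RpS10a and RpS19b are known for expression in the germline, while RpS5a, RpS10b and RpS19a are expressed throughout the body. Of the 26 genes outside these pairs, 12 were bound. The start sites of the copies are shown to let their sequences be compared, with RpS15Aa and its partner left out. Each line holds the 10 bases before the start site and the first 20 from it on, 5′ to 3′ in dm6, and capitals mark CTTT, the core of the TCT initiator, where it begins within 5 bases of the start site printed.
RpS5a, chrX:17148245-17148274, minus strand: tgccgtaacatgttCTTTttcaggcgtttg
RpS5b, chr3R:14901544-14901573, minus strand: cttttaccgtttCTTTttcatcctctttct
RpS10b, chrX:19598021-19598050, plus strand: tcttcttcttgtcatcccttccgtttccct
RpS10a, chr3R:27652750-27652779, plus strand: ttcggtaaatactaatttaagctggccaca
RpS14a, chrX:7933732-7933761, plus strand: agctacgtcaaccttCTTTtttgatatccg
RpS14b, chrX:7934888-7934917, plus strand: gtgttgtttttgccttctttttttcgcatc
RpS19a, chrX:16637884-16637913, plus strand: ttcacgcgccttgttCTTTtttccggttga
RpS19b, chr3R:23933511-23933540, minus strand: ccaatcgtccattttgactaaagtcagcaa
RpS28b, chrX:9554613-9554642, plus strand: ccgataaccgctcaacttcctttttgcttg
RpS28a, chr3R:30022629-30022658, minus strand: actcacagcttcaaattcaaatcttttatt

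Signals differed between copies in 5 pairs and hardly in the other. RpS28b had 105 in replicate 1 and 88.5 in replicate 2, against 20.1 and 41.3 at RpS28a, ratios of 5.21 and 2.14. RpS19a had 59.0 and 66.4, against 18.1 and 14.1 at RpS19b, ratios of 3.26 and 4.71. RpS10b had 65.2 and 60.4, against 18.7 and 20.4 at RpS10a, whose entries stood at -407 bp and -350 bp from the start site, ratios of 3.49 and 2.96. The higher value was at the bound copy in both replicates in each of these pairs. In all 6 pairs the bound copy was called from a list made of both replicates. Its higher values therefore follow at least in part from the call.

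RpS15Aa had 47.8 and 63.0, against 19.8 and 13.2 at RpS15Ab, ratios of 2.41 and 4.77. RpS5a had 31.1 and 67.7, against 21.8 and 26.8 at RpS5b, ratios of 1.43 and 2.53. The copies of RpS14 stand in tandem on X and had almost equal entries, 26.2 and 35.3 at RpS14a against 24.4 and 34.7 at RpS14b, ratios of 1.08 and 1.02. A signal ratio compares peaks within 1 list and has no replicate error of its own, and with 2 replicates no test across them was made.

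**Figure D4:**
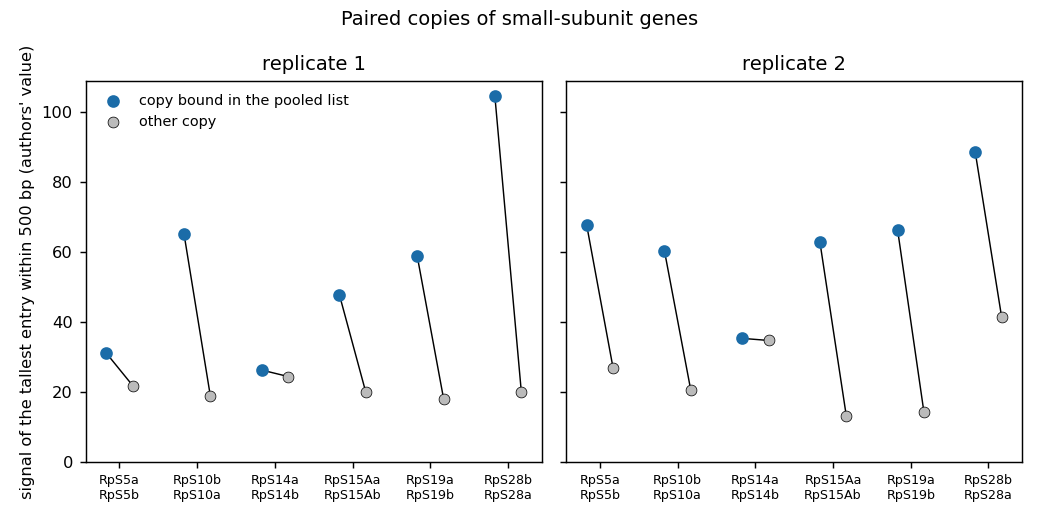
Signal of the tallest ranked-list entry within 500 bp of a start site (authors' value, linear axis from 0) for the 6 pairs of gene copies in replicate 1 (left) and replicate 2 (right), the copy bound in the pooled list in blue and the other copy in grey, joined by a line. The blue point is well above the grey one in 4 pairs in both replicates, RpS5a and RpS5b differ less in replicate 1 (31.1 and 21.8), and the RpS14 copies are nearly level. The blue copies were called from a list made of both replicates, so their higher values follow at least in part from the call.

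Near-identical copies can share reads, and how the authors placed such reads is not given in the sources used here. The coding sequences of RpS14a and RpS14b were identical at 97.8% of aligned positions and those of RpS15Aa and RpS15Ab at 98.2%, so entries reaching into the coding sequence of these 4 genes are uncertain. The other 4 pairs were identical at 67.2% to 78.2% of positions. Aligned promoter windows of 300 bases were identical at 51.6% for the RpS14 copies and 43.8% for the RpS15A copies, against 40.3% to 48.6% for the other 4 pairs. RpS14a also had another pooled summit, 179 bp downstream of its start site, with a signal of 16.1, where the peak at the start site had 61.2. Without the 4 near-identical copies, 16 of 34 genes were bound.

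Promoter sequence was described with 10 motifs. The TCT initiator was sought as CTTT on the sense strand, beginning within 5 bases of any annotated start site, and was found at 25 of the 38 small-subunit genes (65.8%) and at 8.07% of all protein-coding genes. Genes with more annotated start sites had more chances of a match. Bound and unbound small-subunit genes carried it alike, in 12 of 18 (66.7%) and 13 of 20 (65.0%). At the large-subunit genes it was found in 33 of 54 (61.1%).

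The DRE, sought as TATCGATA in the window from 250 bases before to 50 bases after the most upstream start site, was present at 13 of the 38 small-subunit genes (34.2%) and at 9.36% of all protein-coding genes. It was present at 8 of the 18 bound genes (44.4%) and 5 of the 20 unbound ones, a difference that was not tested. Within 50 bp of the summit it was found at 6 of the 18 bound genes (33.3%), against 28 of all 3354 summits (0.835%) and 26 of the 1332 distinct summits at protein-coding start sites (1.95%). Since small-subunit summits stand nearer to start sites than most, summits within 50 bp of the start of other genes, without cytosolic ribosomal protein genes, were also read: 4 of 208 held the element (1.92%). At large-subunit genes 6 of 34 summits held it (17.6%). The 6 small-subunit elements, shown in the first set of lines, lay 4 to 34 bp from their summits, and that of RpS12 lay 7 bp away.

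The CCAAT pentamer, sought on both strands, had shares at these genes near or below those over all summits and all promoters, by small counts. Within 50 bp of the summit it was found at 2 of the 18 bound genes (11.1%), against 19.5% of all summits and 14.4% of the 208 summits close to the start of other genes. Within 25 bp the shares were 11.1% and, of all summits, 11.0%. In the promoter window it was found at 16 of the 38 (42.1%), against 46.7% of all protein-coding genes, and with 100 bases before the start site in place of 250 at 8 (21.1%), against 26.2%. Of the longer forms, CCAATC was within 50 bp of the summit at RpS28b alone, against 4.47% of all summits, and CCAATG at none of the 18, against 4.89%. With so few bound genes, a share such as 2 of 18 rests on single genes.

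The other motifs were each within 50 bp of the summit at 3 or fewer of the 18. GGTCACAC, the core of the element called Motif 1 that the factor M1BP binds, lay within 50 bp of the summit at 2 of the 18 bound genes (11.1%), 1 of them RpS23, against 0.745% of all summits and 4.33% of the 208 summits close to the start of other genes. At large-subunit genes 5 of 34 summits held it (14.7%). The promoter window held it at 2 of the 18 bound genes (11.1%) and 3 of the 20 unbound ones (15.0%). The share of all protein-coding promoters was 7.7%. The TATA box, TATAAA, was within 50 bp of the summit at 2 of the 18 (11.1%), against 18.3% of all summits. The E-box CAGCTG was there at 3 (16.7%), RpS16, RpS21 and RpS27, against 4.03% of all summits. Of the 208 summits close to the start of other genes 8.65% held it, and of the 34 at large-subunit genes 0. In the promoter window CAGCTG was at 6 of the 38 (15.8%), against 17.7% of all protein-coding genes. Bound and unbound small-subunit promoters held it in 16.7% and 15.0%. GAGAG was within 50 bp of the summit at 1 of the 18 (5.56%), against 13.8% of all summits. CAGGTA, the site of the zygotic activator Zelda, was there at none, against 2.24%. All of these were sought on both strands, and the only overlap among the spellings is that CCAATC and CCAATG contain CCAAT.

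Related genes were read in the same way. The large-subunit genes, with symbols RpL and RpLP, were bound in 34 of 54 cases (63.0%), with a median signal of 125 and a median distance of 31.5 bp, close to the 116 and 26.5 bp of the small-subunit genes. The mitochondrial small-subunit genes were bound in 7 of 26 cases (26.9%), with a median distance of 147 bp, and 1 of these 7 summits was within 100 bp. The pooled share of all protein-coding genes was 12.5%. In the conservative list 4 of the 26 were bound (15.4%), against 11.6% of all genes. The own list of replicate 1 held 4 (15.4%), against 7.54%, and that of replicate 2 held 3 (11.5%), against 9.14%. For 3 of the 7 bound genes, the pooled peak had support from neither replicate. The difference between the 2 subunits of the cytosolic ribosome was not tested.

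Proteins of the small subunit whose gene symbols fall outside the naming rule were bound as well. The summit at sta, which encodes the subunit protein RpSA, lay 5 bp upstream of a start site with a pooled signal of 87.2, and overlapped a thresholded peak of replicate 1 alone. The summit at Rack1, which encodes a scaffold protein of the head, lay 34 bp upstream with a signal of 177, in both replicates. Of 21 initiation factor genes whose proteins act on the small subunit, 4 were bound, where the share of all protein-coding genes was 12.5%. The own thresholded list of replicate 1 held 1 of the 21, against 7.54% of all genes. That of replicate 2 held 3, against 9.14%. The 4 were eIF1, which guards start codon choice (133), and the subunits eIF3a (79.1), eIF3h (76.8) and eIF3c (56.8) of the scaffold factor eIF3. Their median distance was 185 bp. Of 5 other regulator genes, 3 were bound in the pooled list and 2 in the conservative list, where the shares of all protein-coding genes were 12.5% and 11.6%. Dref, which encodes DREF (signal 127, 65 bp upstream), M1BP (101, 68 bp upstream) and Xrp1 (64.9, 61 bp upstream) were bound in the pooled list. Trf2 and Myc were not, with nearest summits 2310 bp and 8759 bp away.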

How the data were processed

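ChIP-seq peak lists of 2 biological replicates were read. Per the deposited file records, peaks are in dm6 coordinates and were ranked and thresholded by irreproducible discovery rate for each replicate and for both together; the tools for alignment and peak calling are not given in the sources used here. The deposited signal of each peak is never negative and its scale is not stated. The deposited score is a coded irreproducible discovery rate, and its minimum of 830 in the pooled list corresponds to a rate of 0.01. The labels name GFP as the antigen in one field and Nf-YA in another. Depth is unknown, since only peak lists were read. The ranked lists of the whole series, with 16 columns for unnamed inputs, were not used.

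Start sites came from every transcript of a gene in Ensembl release 115 (BDGP 6.54), and bases from the Release 6 reference of RefSeq, whose arm lengths hold every peak used. The nearest summit within 500 bp made a gene bound. Overlap with a replicate required 1 shared bp. In the ranked lists the tallest entry within 500 bp was taken. Coding identity came from a global alignment of the longest coding sequences. Divergent starts pointed apart within 1000 bp. No test was made: the design has 1 group, so counts stand beside the same over all genes.

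Some small-subunit genes are counted in the totals and not reported by name here. The genes and lists were chosen with earlier results of these data known. Genes given in full were the tallest 10, all paired copies, those lacking a replicate and those beside a limit. Python 3.11.15, pandas 2.3.3, numpy 2.4.6, scipy 1.17.1, Biopython 1.88 and matplotlib 3.10.9 were used. The code was tested on simulated peaks at known genes.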

Additional observations from a re-analysis of the deposited data

How the results depend on the processing

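The count of bound small-subunit genes stayed between 14 and 20 under every alternative tried. It was 18 in the conservative list, within 250 bp, with peaks overlapping the start site and with 1 start site per gene, 17 within 100 bp, 20 within 1000 bp (adding RpS14b and RpS19b) and 14 in the upper 50% by signal. Leaving out a replicate gave 14 and 17, of which 13 and 17 were among the 18. All bound protein-coding genes moved more, to 565 within 100 bp, 1052 in the upper 50% by signal and 932 with peaks overlapping the start site, and to 1051 without replicate 2 and 1275 without replicate 1. Chosen after seeing the data, 17 small-subunit genes had the start strictly nearest to the summit, and 16 were bound without near-identical copies. A window of 25 bp left 3 of the 6 DRE matches at summits (16.7%, against 0.417% of all summits) and 100 bp gave 7 (38.9%, against 2.18%). The TCT initiator was at 2 genes when CTTT had to begin exactly at the annotated start site (5.26%, against 0.81% of all genes) and at 29 within 10 bases (76.3%, against 14.9%). CCAAT near the summit was at 5 genes with 100 bp (27.8%, against 35.1% of all summits). With 100 bases before the start site in place of 250, promoter matches fell to 8 of 38 for CCAAT, 7 for TATAAA (18.4%, against 23.9% of all genes), 1 for GAGAG and 1 for CAGGTA, and the DRE was at 13 (34.2%, against 7.63%). The count of peaks found in each replicate was 13 under all overlap rules tried. Depth is unknown, so low entries cannot be told apart from absent binding. No paired analysis was possible because the series has 1 group.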

Other observations

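Binding of the small-subunit genes was uneven over the chromosome arms. On X 6 of 8 were bound (75.0%), where 10.7% of all protein-coding genes of that arm were, and on 3L 3 of 4, where 13.8% were. On 3R 5 of 12 were bound (41.7%), on 2L 2 of 6 and on 2R 2 of 7 (28.6%), where the shares of all genes were 12.6%, 12.5% and 12.4%. The arms hold few of these genes each. The 6 bound genes of X (RpS28b, RpS19a, RpS10b, RpS15Aa, RpS5a and RpS14a) are the bound copies of the 6 pairs, of whose unbound copies 1 (RpS14b) lies on X, 4 lie on 3R and 1 lies on 2R. The other unbound gene of X is RpS6.

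The GAGAG motif was at 0 of the 20 unbound small-subunit promoters and 4 of the 18 bound ones (22.2%), against 29.7% of all protein-coding promoters. At large-subunit genes it was at 12 of 54 promoters (22.2%). With 100 bases before the start site in place of 250 it was at 0 of the 20 and 1 of the 18, against 2516 of 13945 protein-coding promoters. No explanation of these counts was tested.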
